A study of Mus musculus with 38 samples.

Results

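The genes examined were 10 co-chaperones of the HSP70 system: the J-domain (HSP40 family) genes Dnaja1, Dnaja2, Dnajb1, Dnajb2, Dnajb4, Dnajb6 and Dnajc7, the BAG domain genes Bag2 and Bag3, and St13. Members were the intervals of the HSF1 and HSF2 site lists that lay over, or within 1 kb of, any annotated transcript start of these genes. This gave 6 of 1726 HSF1 intervals, at 6 genes, and 4 of 2135 distinct HSF2 intervals, at 4 genes. CUT&Tag directs the Tn5 transposase to an antibody on chromatin, so that the coverage is meant to mark where the protein was bound. The study could not fully exclude a preference of Tn5 for open chromatin. It was performed in JM8 mouse embryonic stem (ES) cells, either asynchronous (A) or mitotic (M), the latter arrested with nocodazole at 50 ng/ml for 6 h and collected by shake-off. Endogenous HSF1 and HSF2 were profiled with antibodies to each protein in cells that carried both genes. Stably overexpressed constructs were profiled in Hsf2 knockout cells, which descend from picked colonies. The constructs were therefore measured without endogenous HSF2 and from integrated transgenes. Halo-HSF2 was profiled with anti-HSF2, and an HA-tagged Halo-HSF2, which the study lists as a separate construct, with anti-HA. Halo-H2DBD, which carries the DNA-binding domain of HSF2, was profiled with anti-HA. Halo-HSF2 with anti-HA below means the HA-tagged form, so antibody and construct cannot be told apart between the Halo-HSF2 signals. The series holds 38 libraries in 19 conditions of 2 libraries each. The 10 HSF1 and HSF2 conditions and the SOX2 conditions in A and M were used, and the other 7 were not analysed here. These 7 were the IgG, anti-HA and Hsf2 knockout controls and the mixtures with wild-type cells. Signal values were therefore not compared with a background.

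Each value is the mean spike-in scaled signal per base over an interval, averaged by the authors over the libraries of a condition. There is thus 1 value per condition with no spread between libraries, and no difference between A and M could be tested. The score tables list no totals of reads and give no depth, and read totals that the study lists for the anti-HA libraries were not used here. Levels of different antibodies are on separate relative scales, so each site was also placed by its rank, or by the share of sites in its list with a lower signal.

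HSP70 binds and releases unfolded protein as it hydrolyses ATP and exchanges ADP. J-domain proteins bring substrates to HSP70 and stimulate its hydrolysis of ATP, BAG domain proteins promote the release of ADP, and ST13 (HIP) slows that release. HSF1 and HSF2 are transcription factors that bind heat shock elements, which are inverted repeats of GAA, and several HSP40 and BAG genes are known targets of HSF1 in stressed cells.

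HSF1 intervals lay at Dnaja1, Dnajb1, Dnajb6, Dnajc7, Bag3 and St13, that is at 6 of 10 genes, where 4.53% of 21951 protein-coding genes had one. HSF2 intervals lay at Dnaja1, Dnajb1, Dnajb6 and Bag3, or 4 of 10 genes, where 8.32% of protein-coding genes had one. All 4 also had an HSF1 interval, and 3.13% of protein-coding genes had both. Dnajc7 and St13 had HSF1 intervals alone, and Dnaja2, Dnajb2, Dnajb4 and Bag2 had neither. The genes had been picked with results of these data known, so these shares describe the list. Every one of the 10 intervals contained a transcript start, and the same counts came from windows of 0 bp and 5 kb.

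In the mm10 build the HSF1 intervals were chr4:40720754-40723989 at Dnaja1, chr8:83606829-83609795 at Dnajb1, chr5:29735054-29736544 at Dnajb6, chr11:100618628-100620397 at Dnajc7, chr7:128522233-128524685 at Bag3 and chr15:81398737-81401267 at St13. The HSF2 intervals were chr4:40720754-40724483 at Dnaja1, chr8:83607196-83609427 at Dnajb1, chr5:29734850-29736554 at Dnajb6 and chr7:128522349-128524839 at Bag3. At these 4 genes the overlap of the HSF1 and HSF2 intervals covered 75.2% to 100% of the HSF1 interval and 86.8% to 100% of the HSF2 interval. Relative to the first start, interval centres lay at -157 bp (Bag3, HSF1) to 138 bp (Dnaja1, HSF2), except at Dnajc7, where the centre was at 656 bp. Intervals reached over coding sequence at all these genes except Dnajb6. Starts of other genes lay inside those at Dnaja1 (Gm6297 and Mir207), Dnajb6 (Gm5129), Dnajc7 (Nkiras2) and St13 (Xpnpep3), and signal there cannot be assigned to 1 of the genes. No other gene started inside the Dnajb1 and Bag3 intervals.

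**Figure D1:**
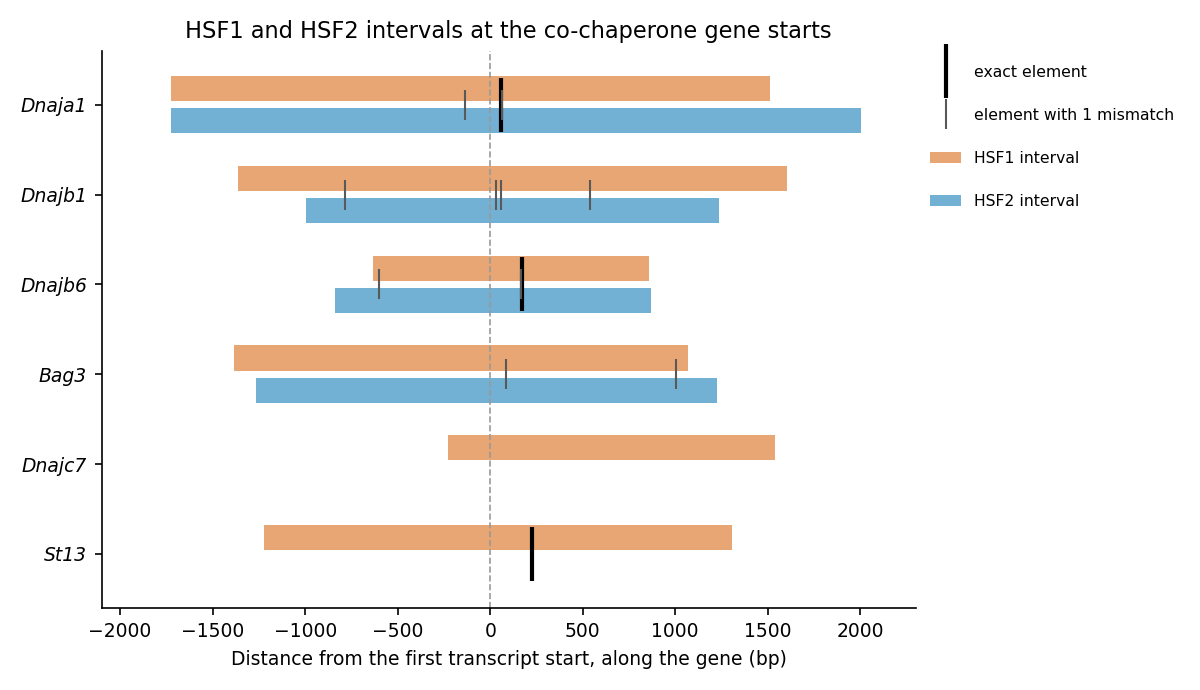
HSF1 (orange) and HSF2 (blue) intervals along 6 genes, plotted by distance from the first transcript start in bp along the gene; long black ticks are exact heat shock elements and short grey ticks are elements with 1 mismatch. All bars cross the start, the Dnajc7 interval reaches only 229 bp upstream, and exact elements lie at 54, 164 and 220 bp in Dnaja1, Dnajb6 and St13.

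The reference sequence of each interval was searched on both strands for 3 inverted units spaced by 2 bases, GAANNTTCNNGAA or TTCNNGAANNTTC. An exact element was present at 3 of the 6 genes with an interval, where 16% of HSF1 intervals and 14.1% of HSF2 intervals held one. The HSF1 intervals at Dnaja1, Dnajb6 and St13 and the HSF2 intervals at Dnaja1 and Dnajb6 held it. Median widths were 2492 bp in members and 1938.5 bp in the list for HSF1, and 2361.5 and 2395 bp for HSF2. Members were also picked at transcript starts and counted by gene, so the shares of the lists are not a like comparison. With at most 1 mismatch in the 9 defined bases, elements were found at 5 of the 6 genes, against 51.3% of HSF1 and 49.2% of HSF2 intervals. They are shown because sites with like intervals differed in the element they held. Each window has 29 bases of the GRCm38 sequence, 5′ to 3′ along the gene, with the matching bases of the GAA and TTC units in capitals and a mismatched base left in lower case. The first 3 are exact and lie in untranslated exon sequence, 54 bp downstream of the first start of Dnaja1 (plus strand, chr4:40722526-40722554), 164 bp downstream of that of Dnajb6 (plus strand, chr5:29735844-29735872) and 220 bp downstream of that of St13 (minus strand, chr15:81399803-81399831). The other 3 have 1 mismatch and also lie in untranslated exon sequence, at 28 bp (chr8:83608213-83608241) and 51 bp (chr8:83608236-83608264) in Dnajb1 and at 79 bp (chr7:128523687-128523715) in Bag3, all on the plus strand.
Dnaja1: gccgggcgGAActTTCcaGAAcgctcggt
Dnajb6: agctccgaGAAtcTTCcgGAAcgctagac
St13: agctacacTTCtaGAAggTTCtaggcgga
Dnajb1, at 28 bp: gaggggcgGAAggTTCtgGAgggctggcg
Dnajb1, at 51 bp: ctggcgggaTCtgGAAgcTTCcgccggac
Bag3: gaggctatTTCcaGAcacTTCcacccctc

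The Dnajb1 interval held 4 elements with 1 mismatch and no exact one, and the Bag3 intervals held 2, the second in an intron at 998 bp. The Dnajc7 interval held neither kind. No interval held an element of 4 units. A second element with 1 mismatch overlapped the exact one at Dnaja1, from 59 bp, and at Dnajb6, from 159 bp. Exact elements also lay within 1 kb of the first start at 2 of the 4 genes with no interval, where 3.4% of such windows around protein-coding starts held one. At Dnajb2 it was 716 bp upstream (plus strand, chr1:75235682-75235710), and at Bag2 it was in an intron 325 bp downstream (minus strand, chr1:33757450-33757478). These are shown for comparison with the genes that had an interval.
Dnajb2: agacccacTTCtgGAAggTTCccttttcc
Bag2: tgcagaacTTCcaGAAtcTTCtgcgcggt

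Relative to the nearest annotated start of any transcript, rather than the first, the exact elements lay at 54 bp in Dnaja1, -88 bp in Dnajb6, -229 bp in St13, -716 bp in Dnajb2 and 271 bp in Bag2, so that 3 of the 5 were upstream. In the RefSeq promoter windows, which span 300 bases and end shortly after a start, an exact element was found among these genes at Dnajb6 alone, and in 0.603% of all windows. A match describes the letters of the reference and does not show binding there. The HSF1 intervals of the 6 genes had a ratio of observed to expected CpG of 0.602 to 0.782, with a median of 0.681, where the median of the HSF1 list was 0.500. For the 4 HSF2 intervals the median was 0.687 and that of the HSF2 list 0.604. Both medians of the members were below the upper quartile of their list, 0.692 for HSF1 and 0.727 for HSF2. The members were picked at transcript starts and the lists were not, so these ratios are not a like comparison.

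HSF1 signal was placed highest at St13, whose product (HIP) binds ADP-bound HSP70. It was 53.8 in A and 36.7 in M, ranks 30 and 24 of 1726, and 98.3% of HSF1 sites had less signal in A. Dnajc7, a J-domain protein with TPR repeats that contacts both HSP70 and HSP90, followed with 19.0 in A and 9.09 in M, ranks 120 and 202. Both are genes without an HSF2 interval, and their HSF1 sites stood in the top of the list although one held an exact element and the other none.

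Among the J-domain genes with intervals of both factors, HSF1 signal at Dnajb1, the main stress-inducible cytosolic HSP40, was 11.7 in A and 9.89 in M, ranks 303 and 165. At Dnaja1, a cytosolic class A HSP40, it was 9.73 and 6.25, ranks 425 and 457. At Dnajb6, which suppresses aggregation of polyglutamine proteins, it was 3.71 and 3.07, ranks 1273 and 1120. Bag3, which couples HSP70 to small heat shock proteins and selective autophagy, had the lowest HSF1 level of the 6, with 3.08 in A and 2.07 in M, ranks 1400 and 1382. The 6 sites thus spread widely over the HSF1 list, with 18.9% of sites below Bag3 and 98.3% below St13 in A.

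The log2 ratio of mitotic to asynchronous signal (log2 M/A) was below 0 for HSF1 at all 6 sites, as at 91.9% of the HSF1 list, and once the list median was subtracted it was above 0 at 4 of the 6. The deposited values were -0.25 at Dnajb1, -0.27 at Dnajb6, -0.55 at St13, -0.57 at Bag3, -0.64 at Dnaja1 and -1.06 at Dnajc7. Their median was -0.56 and that of the list -0.62. Dnajb1 and Dnajb6 lay above the upper quartile of the list, at -0.34, and Dnajc7 lay below the lower quartile, at -0.89. Dnajc7 was the 1 site of the 6 at or below -1, as were 17.7% of HSF1 sites. Another pair of HSF1 means, carried by the deposited site list, gave a median of -1.45 over the 6 sites and -2.41 over the list. Dnajc7 was again the lowest of the 6, at -2.40, but here it was near the list median, and Bag3 was highest, at -0.74. The order of the others changed. Dnajb1 and Dnajb6, the least lowered above, were at -1.51 and -1.49, below St13 at -1.42 and Dnaja1 at -1.38. Which of the pairs better reflects the scaled tracks is not given in the sources used here.

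**Figure D2:**
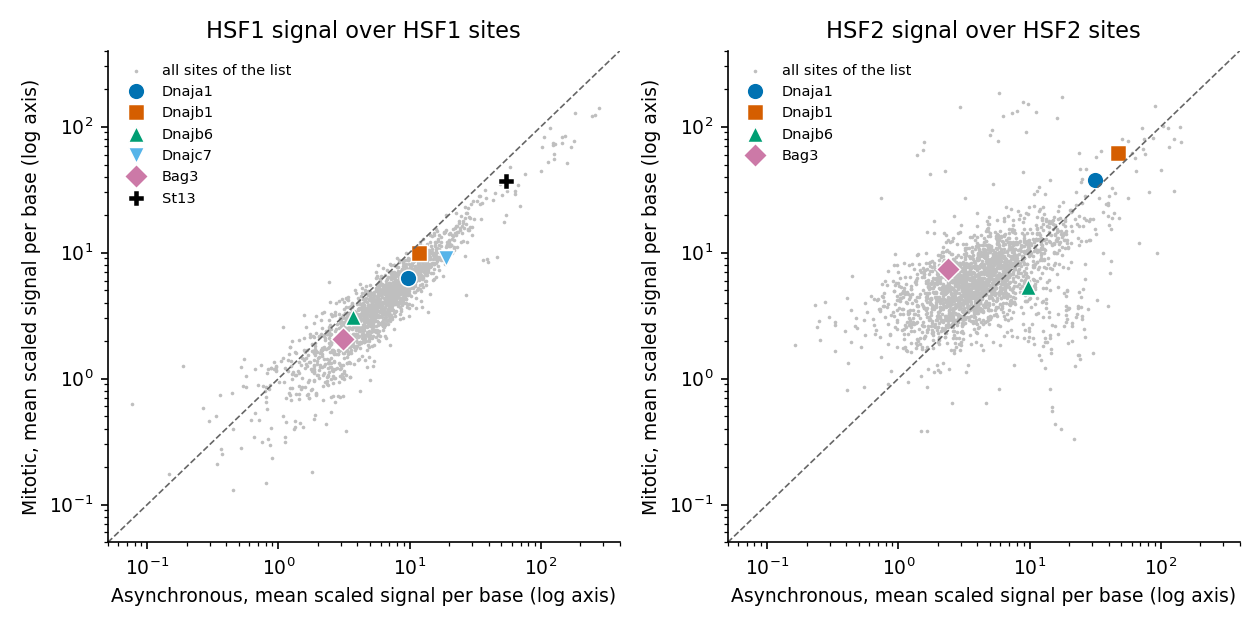
Mean scaled signal per base in asynchronous cells (x, log axis) and mitotic cells (y, log axis), for HSF1 over 1726 HSF1 sites and HSF2 over 2135 HSF2 sites; grey points are all sites, coloured symbols the co-chaperone sites and the dashed line equal signal. For HSF1 the 6 symbols lie below the line in the deposited scaling (4 have log2 M/A above 0 once the list median is subtracted), while for HSF2 Bag3 lies above it at low asynchronous signal and Dnajb6 below it.

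HSF2 signal was placed highest at Dnajb1, with 47.2 in A and 61.9 in M, ranks 25 and 31 of 2135. Dnaja1 followed with 31.7 and 37.9, ranks 48 and 46. Both stood within the top of the HSF2 list in both phases, with at least 97.8% of sites below. Dnajb6 had 9.67 in A and 5.33 in M, and its rank went from 354 to 1216. Bag3 had 2.38 in A and 7.47 in M, and its rank went from 1661 to 745. The order of Dnajb6 and Bag3 was therefore the opposite in M of that in A, while Dnajb1 and Dnaja1 held the first places. The HSF2 list merges calls made in A and in M, and the phase in which each site was called was not given.

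The HSF2 log2 M/A was 1.65 at Bag3, 0.39 at Dnajb1, 0.26 at Dnaja1 and -0.86 at Dnajb6. It was above 0 at 3 of 4 sites, where 72.3% of the list was, but at Bag3 alone after the list median of 0.49 was subtracted. Bag3 was the 1 site at or above 1, as were 30.1% of HSF2 sites, and 88.3% of sites had a lower ratio. At Dnajb6, 8.48% of sites had a lower ratio. Bag3 stayed above 0 and Dnajb6 below 0 under each pseudocount and centring tried. The place of Bag3 at or above 1 was not kept throughout. Centring on the weakest quartile of sites gave 0.94 there, centring on all sites 1.16 and a pseudocount of 1 gave 1.33.

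At the 4 genes with both intervals, the HSF2 ratio exceeded the HSF1 ratio by 2.22 at Bag3, 0.90 at Dnaja1 and 0.64 at Dnajb1, and the difference was -0.59 at Dnajb6. Over all 888 overlapping pairs of HSF1 and HSF2 intervals the median difference was 0.96. Relative to these pairs, 90.5% had a smaller difference than Bag3, and 4.62% a smaller one than Dnajb6. Dnaja1 and Dnajb1 lay near the middle, with 47.4% and 35.4% below, and their differences were under 0 once each list was centred.

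**Figure D3:**
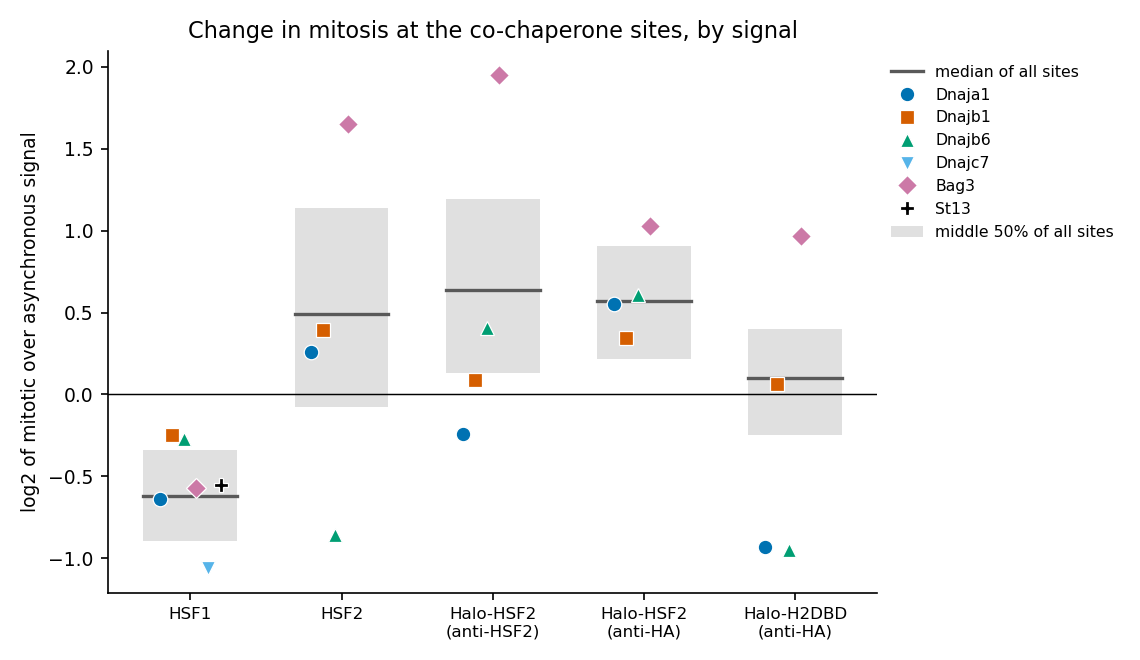
The log2 ratio of mitotic to asynchronous signal (y) at the co-chaperone sites for the 5 signals (x); grey boxes run from the lower to the upper quartile of all sites in the list, grey lines are their medians and symbols are genes. In the deposited scaling Bag3 is the highest symbol for each of the 4 HSF2 signals, and Dnaja1 and Dnajb6 lie at -0.93 and -0.95 for Halo-H2DBD.

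The constructs were measured over the same 4 HSF2 intervals. At Dnajb1, Halo-HSF2 was 2.20 in A and 2.33 in M with anti-HSF2, and 2.18 and 2.77 with anti-HA. At Dnaja1 the values were 1.08 and 0.913 with anti-HSF2, and 0.906 and 1.33 with anti-HA. Dnaja1, which ranked 48 for endogenous HSF2 in A, ranked 1531 and 1550 for Halo-HSF2 with these antibodies, whereas Dnajb1 ranked 631 and 519. In M, Dnaja1 ranked 1939 with anti-HSF2 and 1658 with anti-HA, and Dnajb1 ranked 1121 and 620. At Dnajb6 the values were 1.33 and 1.76 with anti-HSF2, and 0.935 and 1.42 with anti-HA. Its ranks in A and M were 1309 and 1493 with anti-HSF2, and 1519 and 1583 with anti-HA. Bag3 had the lowest A signal of the 4 with both antibodies, 0.658 and 0.529, and reached 2.54 and 1.08 in M. The rank of Bag3 went from 1890 to 1004 with anti-HSF2 and from 1957 to 1846 with anti-HA.

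For Halo-HSF2 with anti-HSF2, log2 M/A was -0.24 at Dnaja1, 0.087 at Dnajb1, 0.40 at Dnajb6 and 1.95 at Bag3. It was above 0 at 3 of 4 sites (79.7% of the list) and at or above 1 at Bag3 (33.5% of the list), and after the list median of 0.64 was subtracted only Bag3 stayed above 0. With anti-HA it was 0.55, 0.34, 0.61 and 1.03 in the same order of genes. All 4 were above 0, as were 86.3% of sites, and Bag3 was again at or above 1, as were 19.8%. From these low A signals, a pseudocount of 0.1 gave 0.91 at Bag3 with anti-HA and one of 1 gave 0.44, and centring gave 0.46 or 0.34, all below 1. With anti-HSF2 a pseudocount of 1 gave 1.09 at Bag3. Subtracting the list median of 0.57 brought Dnaja1 and Dnajb1 under 0. In the deposited scaling the Halo-HSF2 signals, which differ in construct as well as antibody, differed in sign at Dnaja1. The ratio from anti-HSF2 minus that from anti-HA was -0.80 there and 0.92 at Bag3. At Dnajb6, endogenous HSF2 had a ratio of -0.86 while Halo-HSF2 had ratios above 0 with both antibodies in the deposited scaling. With anti-HSF2 that value was under 0 once centred.

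Halo-H2DBD signal at Dnaja1 was 1.36 in A and 0.717 in M, and its rank went from 1362 to 1982. At Dnajb6 it was 1.58 and 0.817, with ranks of 1131 and 1931. These 2 sites were near the bottom of the list in M, with 7.17% and 9.56% of sites below. At Dnajb1 it was 2.67 and 2.79, with ranks of 442 and 490. At Bag3 it was 0.614 and 1.20, and the rank went from 2046 to 1617.

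Halo-H2DBD had log2 M/A values of -0.93 at Dnaja1, -0.95 at Dnajb6, 0.064 at Dnajb1 and 0.97 at Bag3. The split was 2 of 4 above 0, where 58.6% of the list was, and Dnajb1 was under 0 once the list median of 0.098 was subtracted. None of the 4 reached 1, as 3.98% of sites did. Of all sites, 4.12% had a lower ratio than Dnaja1, 3.89% a lower one than Dnajb6, and 95.6% a lower one than Bag3. The ratios of Dnaja1 and Dnajb6 stayed below 0 and that of Bag3 above 0 under each setting tried. Their size was less stable, since a pseudocount of 1 gave -0.46 at Dnaja1, -0.50 at Dnajb6 and 0.45 at Bag3.

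With anti-HA for both constructs, the Halo-H2DBD ratio minus the Halo-HSF2 ratio was -1.48 at Dnaja1, -1.56 at Dnajb6, -0.28 at Dnajb1 and -0.064 at Bag3. The median over 2134 sites was -0.46. At Dnaja1 and Dnajb6, 7.69% and 6.47% of sites had a lower difference, against 61.8% at Dnajb1 and 74.7% at Bag3. With no pseudocount, Dnaja1 and Dnajb6 thus formed a first pair, where the DNA-binding domain had a much lower mitotic ratio than the whole protein. Dnajb1 and Bag3 formed a second pair, whose difference was above the list median. At the first pair and at Bag3, both constructs had signals below their list medians in A and in M. A pseudocount of 1 moved the ratios of domain and whole protein to -0.46 and 0.29 at Dnaja1. At Dnajb6 it moved them to -0.50 and 0.33. The gap kept its direction there but was smaller, so its size depended on this choice. Both sites of the first pair held an exact element, and those of the second held elements with 1 mismatch only. Whether the difference goes with the element over the list was not tested. With 4 sites and no replicates, this is a description of these averages.

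**Figure D4:**
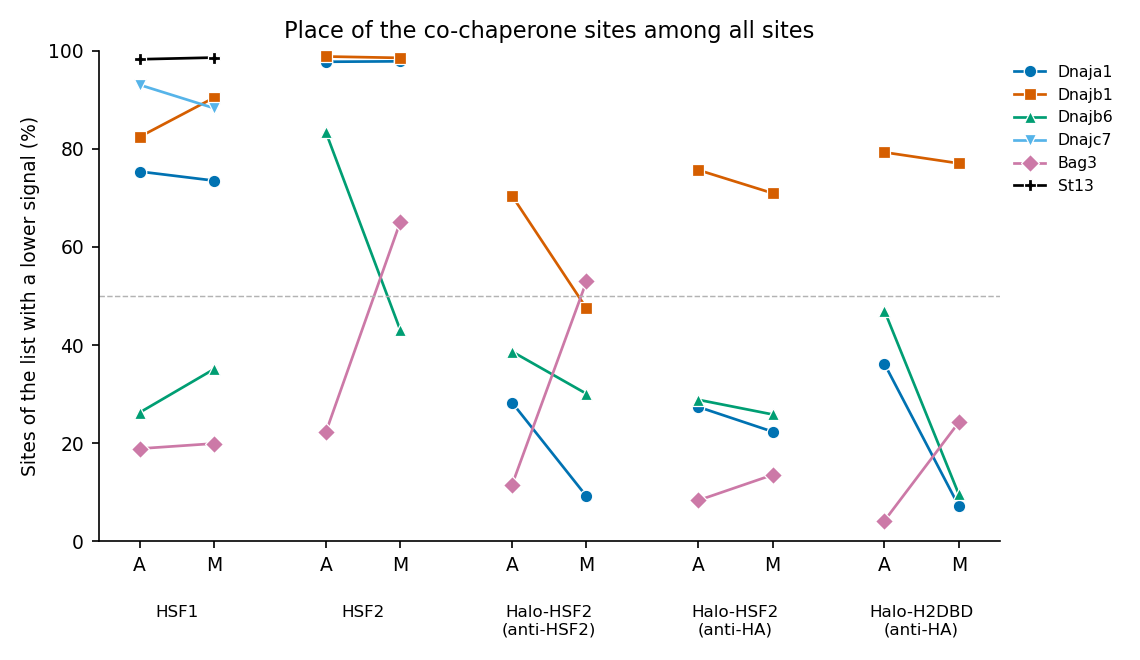
Share of sites in the list with a lower signal (y, percent) in asynchronous (A) and mitotic (M) cells for the 5 signals (x), with 1 line per gene and a dashed line at the middle of the list. St13 for HSF1, and Dnajb1 and Dnaja1 for HSF2, stay near the top in both phases, at 97.8% or more, while Bag3 goes from 22.2% to 65.1% and Dnajb6 from 83.4% to 43.0% for HSF2.

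Dnaja2, a class A HSP40, Dnajb2, a ubiquitin-binding HSP40 of neurons, Dnajb4, a cytosolic class B HSP40, and Bag2, which inhibits the ubiquitin ligase CHIP, had no interval of either list. Their nearest HSF1 interval lay 66.9 kb (Dnajb2), 113 kb (Dnaja2), 2256 kb (Bag2) and 2973 kb (Dnajb4) from a start. The nearest HSF2 interval lay 66.0 kb, 255 kb, 680 kb and 184 kb away in the same order. For Dnajc7 and St13 the nearest HSF2 interval was 85.0 kb and 16.4 kb away. The tables hold values over called intervals only, so HSF signal at these starts is not known here.

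No SOX2 interval lay within 1 kb of the starts of the 10 genes, where 4.99% of protein-coding genes had one. The nearest were 1607 bp from a Dnajb6 start, with SOX2 signal of 31.8 in A and 25.7 in M, and 3433 bp from the Dnajc7 start, with 18.2 and 40.7.

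Of 53 other annotated J-domain, BAG and HSP70 cofactor genes, 4 had an HSF1 interval (Dnaja4, Dnajb5, Hspbp1 and Stip1), where 4.53% of protein-coding genes had one. An HSF2 interval lay at 9 of them (Dnajb11, Dnajc13, Dnajc14, Dnajc16, Hspbp1, Stub1, Stip1, Grpel2 and Sgta), where 8.32% of protein-coding genes had one. In the deposited scaling HSF1 log2 M/A was below 0 at all 4 (91.9% of the list), with a median of -0.86 against -0.62 over the list, and it was also below 0 at these genes once the list median was subtracted. HSF2 log2 M/A was above 0 at all 9 (72.3% of the list), with a median of 0.76 against 0.49 over the list, but below 0 at Dnajb11, Dnajc14 and Hspbp1 once centred. Hspbp1 and Stip1 had both. Stip1, which bridges HSP70 and HSP90, had HSF1 signal of 21.2 in A and 13.6 in M and HSF2 signal of 90.8 and 147, the latter at ranks 10 and 5. Hspbp1, an HSP70 nucleotide exchange factor, had HSF1 signal of 19.5 and 9.86 and HSF2 signal of 16.7 and 23.4. Without centring, an HSF2 ratio below 0 was found at Dnajb6 and at none of these 9 genes, a difference that was not tested.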

How the data were processed

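CUT&Tag signal was analysed for HSF1, HSF2, Halo-HSF2, Halo-H2DBD and SOX2 in asynchronous and mitotic mouse ES cells. The study's methods describe Bowtie2 alignment to mm10 without removal of PCR duplicates, scaling of the coverage by Drosophila spike-in reads, and SEACR calls over IgG made separately in A and M and then merged. The SOX2 list was taken from earlier work. The deposited values are this signal, averaged by the authors over each site and over the 2 libraries of a condition, so these tables have no replicate columns. Groups came from the sample labels.

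Intervals were assigned to genes from the transcript starts of GENCODE M21 (basic), and 6 repeated HSF2 intervals were counted once. Log2 M/A was taken with no pseudocount over sites above 0 in both phases, and ranks over each list. Elements were searched in the GRCm38.p6 sequence. Members and gene lists were chosen with earlier results of these data known, and the rule named every member interval. Of 57 other symbols used, 53 matched the annotation, and 1 further gene of the list is not reported here. RefSeq promoter windows were matched by symbol, with none for St13. No test was run. The alternatives were other windows, starts, pseudocounts, centrings, filters, element definitions and the means in the site lists, of which those for HSF2 were added after the data were seen. Calculations were tested on simulated data with Python 3.11.15, numpy 2.4.6, pandas 2.3.3, pysam 0.24.0 and matplotlib 3.10.9.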

Additional observations from a re-analysis of the deposited data

How the results depend on the processing

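No paired analysis was possible because the deposited columns are averages over the 2 libraries of a condition, and for the same reason no library could be left out. The counts of genes with an interval were the same under every window and start definition tried. Centring moved the directions most. With the median of all sites subtracted, the median log2 M/A over the co-chaperone sites became 0.061 for HSF1, -0.17 for HSF2, -0.39 for Halo-HSF2 with anti-HSF2 and 0.013 with anti-HA, and the median HSF2 minus HSF1 difference, 0.77 as deposited, became -0.35. With the weakest quartile of sites as the reference these were 0.033, -0.38, -0.28, -0.11 and -0.53. A pseudocount of 1 gave 0.31 for Halo-HSF2 with anti-HA, and the means in the site list gave -1.45 for HSF1. For Halo-H2DBD, the median was -0.43 and became 0.064 over sites at or above the median signal, where only Dnajb1 was left. Dnajb1 was also the only site left by this filter for Halo-HSF2, at 0.087 with anti-HSF2 and 0.34 with anti-HA. The element was found at 6 genes with 2 units, at 5 with 1 mismatch allowed and at 0 with 4 units. For 2 and 4 units no share over all intervals is given here, so these counts describe the definitions only. The form with 2 units was also present around the first starts of Dnaja2, Dnajb2, Dnajb4 and Bag2, which had no interval.

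Single sites changed sign under centring as follows, first on all sites and then on the weakest quartile. For HSF1 the values were 0.38 and 0.35 at Dnajb1, 0.35 and 0.32 at Dnajb6, 0.049 and 0.021 at Bag3, and 0.072 and 0.044 at St13. For HSF2 they were -0.23 and -0.45 at Dnaja1, and -0.10 and -0.32 at Dnajb1. For Halo-HSF2 with anti-HSF2 they were -0.55 and -0.44 at Dnajb1, and -0.24 and -0.12 at Dnajb6. With anti-HA they were -0.014 and -0.14 at Dnaja1, -0.23 and -0.35 at Dnajb1, and -0.086 at Dnajb6 on the weakest quartile alone. For Halo-H2DBD, Dnajb1 was -0.034 on all sites alone. The HSF2 minus HSF1 difference became -0.22 and -0.40 at Dnaja1, and -0.48 and -0.67 at Dnajb1. Of 98 alternative values at single sites, 22 changed sign, 28 kept it but moved by more than 1.2-fold and 48 moved less. The averages carry no replicate spread or read totals, so no error was attached to small ratios such as 0.087.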

Other observations

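The site list carried HSF1 means that differed from the score table by gene as well as in scale. At Dnajb6 they were 1.83 in A and 0.652 in M, against 3.71 and 3.07 in the score table, and at St13 they were 70.2 and 26.3, against 53.8 and 36.7. At Dnajc7 the A values were 19.0 in both, and the M values were 3.60 and 9.09. For HSF2 the site list gave log2 M/A of 0.26 at Dnaja1, 0.42 at Dnajb1, -0.79 at Dnajb6 and 1.67 at Bag3, each within 1.2-fold of the score table.

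Ranking by signal times interval width instead of signal per base moved the places of several sites. For HSF1 in A, Dnaja1 went from rank 425 to 207, St13 from 30 to 14 and Dnajc7 from 120 to 185. For HSF2 in A, Dnaja1 went from 48 to 30 and Dnajb6 from 354 to 622.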
